A study of Mus musculus with 6 samples.

Results

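Channels of the cell membrane that respond to stretch, flow or swelling were followed through the cells of the mouse fracture callus. They were Piezo1, Piezo2, Trpv4, Kcnk2, Pkd1, Pkd2, Tmem63a and Tmem63b, taken by gene symbol, 8 of the 52081 gene identifiers that all libraries share. Calluses of 12-week-old mice were dissociated 14 days after a femoral fracture and profiled with single-cell 3′ sequencing. Transcripts were counted by their unique molecular identifiers (UMIs), so that copies made by PCR count as 1. The control group (Piezo1 f/f) and the group labelled knockout (Piezo1 Col2a1) had 3 libraries each, and the latter adds Col2a1CreERT2, a tamoxifen-inducible Cre driven by the Col2a1 promoter of cartilage cells. Mice of both groups carried the floxed Piezo1 alleles and were given 75 mg/kg of tamoxifen daily for 5 days, starting 5 days after the fracture. The sample labels write the knockout genotype as Piezo3-/- and that of the controls as wt, and no label ties a library to a single mouse. The study's methods name as many mice per group as there are libraries, while its results name other numbers, so p-values measure the spread between libraries.

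Piezo1 and Piezo2 form large cation channels that open when the membrane is stretched. Piezo1 senses blood flow in endothelium and load in bone, whereas Piezo2 is best known for touch and body position sense in sensory neurons. Trpv4 is a calcium channel of the TRP family that responds to swelling and compression and is a known load sensor of chondrocytes. Kcnk2 encodes TREK-1, a potassium channel with paired pore domains that opens on stretch and hyperpolarizes the cell. Pkd1 and Pkd2 encode polycystin-1 and polycystin-2, a receptor-like protein and its channel partner on the primary cilium. Tmem63a and Tmem63b belong to the OSCA/TMEM63 family of channels that open under high membrane tension.

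The libraries held 46944 barcodes with 57626530 to 103784364 UMIs per library, and 41863 cells remained after filters. The library labelled knockout 3 stood apart in the sex-linked genes: it had 559 CPM (UMIs scaled to a common total in each library, or in each class of a library) of Xist, the RNA of the inactive X chromosome, and none of the Y-linked Ddx3y, while Xist was at most 0.149 and Ddx3y at least 52.7 in the other libraries. The study describes male mice, so the calls between classes and by label were repeated without that library. Some values that carry the main results are given both ways. Class means, SDs, detection shares and cluster levels include that library. In control 1 and knockout 1, 44.5% and 43.4% of cells fell into clusters with few UMIs, against 3.16% to 9.48% in the other libraries. These clusters entered no cell class. By their markers 4956 of these cells were chondrocyte-like and 442 endothelial-like, beside 3541 cartilage-like cells that were kept. In control 1, 1805 chondrocyte-like cells were set aside and 564 kept, and in knockout 2 it was 692 and 38. Cartilage-like values thus cover only the cells that passed this cut. Counting the few-UMI clusters in was 1 of the alternatives. Any pair of libraries shared 4 to 36 barcodes. Cells were grouped into 16 classes from marker genes, each written with "-like", and the 8 channels were not among the genes used for clustering. In cartilage-like cells 14 of 14 chondrocyte markers were at their highest level, in endothelial-like cells 11 of 11 and in mural-like cells 10 of 12. The counts were lower in osteoprogenitor-like cells (4 of 8), fibroblast-like cells (4 of 12) and progenitor fibroblast-like cells (3 of 8), and no marker was at 0 in its own class. Since the classes were named from these same lists, the counts describe the naming and are no independent check of it. Only libraries with at least 10 cells of a class were used for that class.

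The sequences shown are the 250 bases before a RefSeq start of 4 of the channel genes. For Trpv4 and Kcnk2 the mean of a single class was above the next by more than the pooled SD, although libraries overlapped for Kcnk2. For Pkd1 and Pkd2 the class order was led by the same class. They are from RefSeq on GRCm38.p6 and are written 5′ to 3′ on the gene's own strand. Capitals mark matches on either strand to a GC box (GGGCGG, present in 32.7% of all 32851 windows of this length) or a TEAD core (GGAATG, in 12.6%). The Trpv4 window is chr5:114658422-114658671 on the minus strand, the Kcnk2 window chr1:189402274-189402523 on the minus strand, the Pkd1 window chr17:24549700-24549949 on the plus strand and the Pkd2 window chr5:104459207-104459456 on the plus strand.
Trpv4: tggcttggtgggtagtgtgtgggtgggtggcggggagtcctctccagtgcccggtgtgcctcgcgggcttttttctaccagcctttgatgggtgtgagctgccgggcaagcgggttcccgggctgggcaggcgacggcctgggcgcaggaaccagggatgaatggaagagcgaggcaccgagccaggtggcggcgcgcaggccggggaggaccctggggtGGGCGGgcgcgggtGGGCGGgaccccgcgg
Kcnk2: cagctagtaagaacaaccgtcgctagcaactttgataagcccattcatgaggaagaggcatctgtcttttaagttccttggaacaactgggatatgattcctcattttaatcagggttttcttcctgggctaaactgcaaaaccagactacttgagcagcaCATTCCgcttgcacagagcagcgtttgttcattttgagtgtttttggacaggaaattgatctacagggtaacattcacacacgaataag
Pkd1: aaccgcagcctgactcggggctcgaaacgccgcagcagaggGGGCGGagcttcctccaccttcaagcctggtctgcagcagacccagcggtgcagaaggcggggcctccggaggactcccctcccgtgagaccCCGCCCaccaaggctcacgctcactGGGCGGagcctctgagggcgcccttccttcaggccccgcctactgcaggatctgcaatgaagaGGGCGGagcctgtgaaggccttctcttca
Pkd2: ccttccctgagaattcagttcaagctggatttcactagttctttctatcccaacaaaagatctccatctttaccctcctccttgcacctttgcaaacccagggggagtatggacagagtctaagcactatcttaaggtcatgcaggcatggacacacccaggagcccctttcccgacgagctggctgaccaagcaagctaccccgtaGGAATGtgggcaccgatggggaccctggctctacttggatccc

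The Trpv4 window held 2 GC boxes and 22 CpG dinucleotides, and the Pkd1 window held 4 GC boxes and 16 CpGs. The Kcnk2 and Pkd2 windows held 1 TEAD core each and only 5 and 4 CpGs, beside a median of 6 over all windows. No match to a RUNX core (TGTGGT, in 14.05% of windows), a SOX core (ACAATG, in 10.7%), an ETS core (CCGGAA, in 12.03%) or a TATA box (TATAAA, in 12.4%) lay in these 4 windows. RefSeq gives Kcnk2 a further 3 starts further into the gene, 2 of them in CpG-rich sequence (27 and 28 CpGs), and 3′ counts do not tell which start a transcript came from. The GENCODE annotation starts Pkd1 at 24549834 and Pkd2 at 104459450, inside the RefSeq windows shown, so by it part of each window lies within the gene. Of the 8 channels, 7 had a window. A match is a description of the letters and not evidence of binding.

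**Figure D1:**
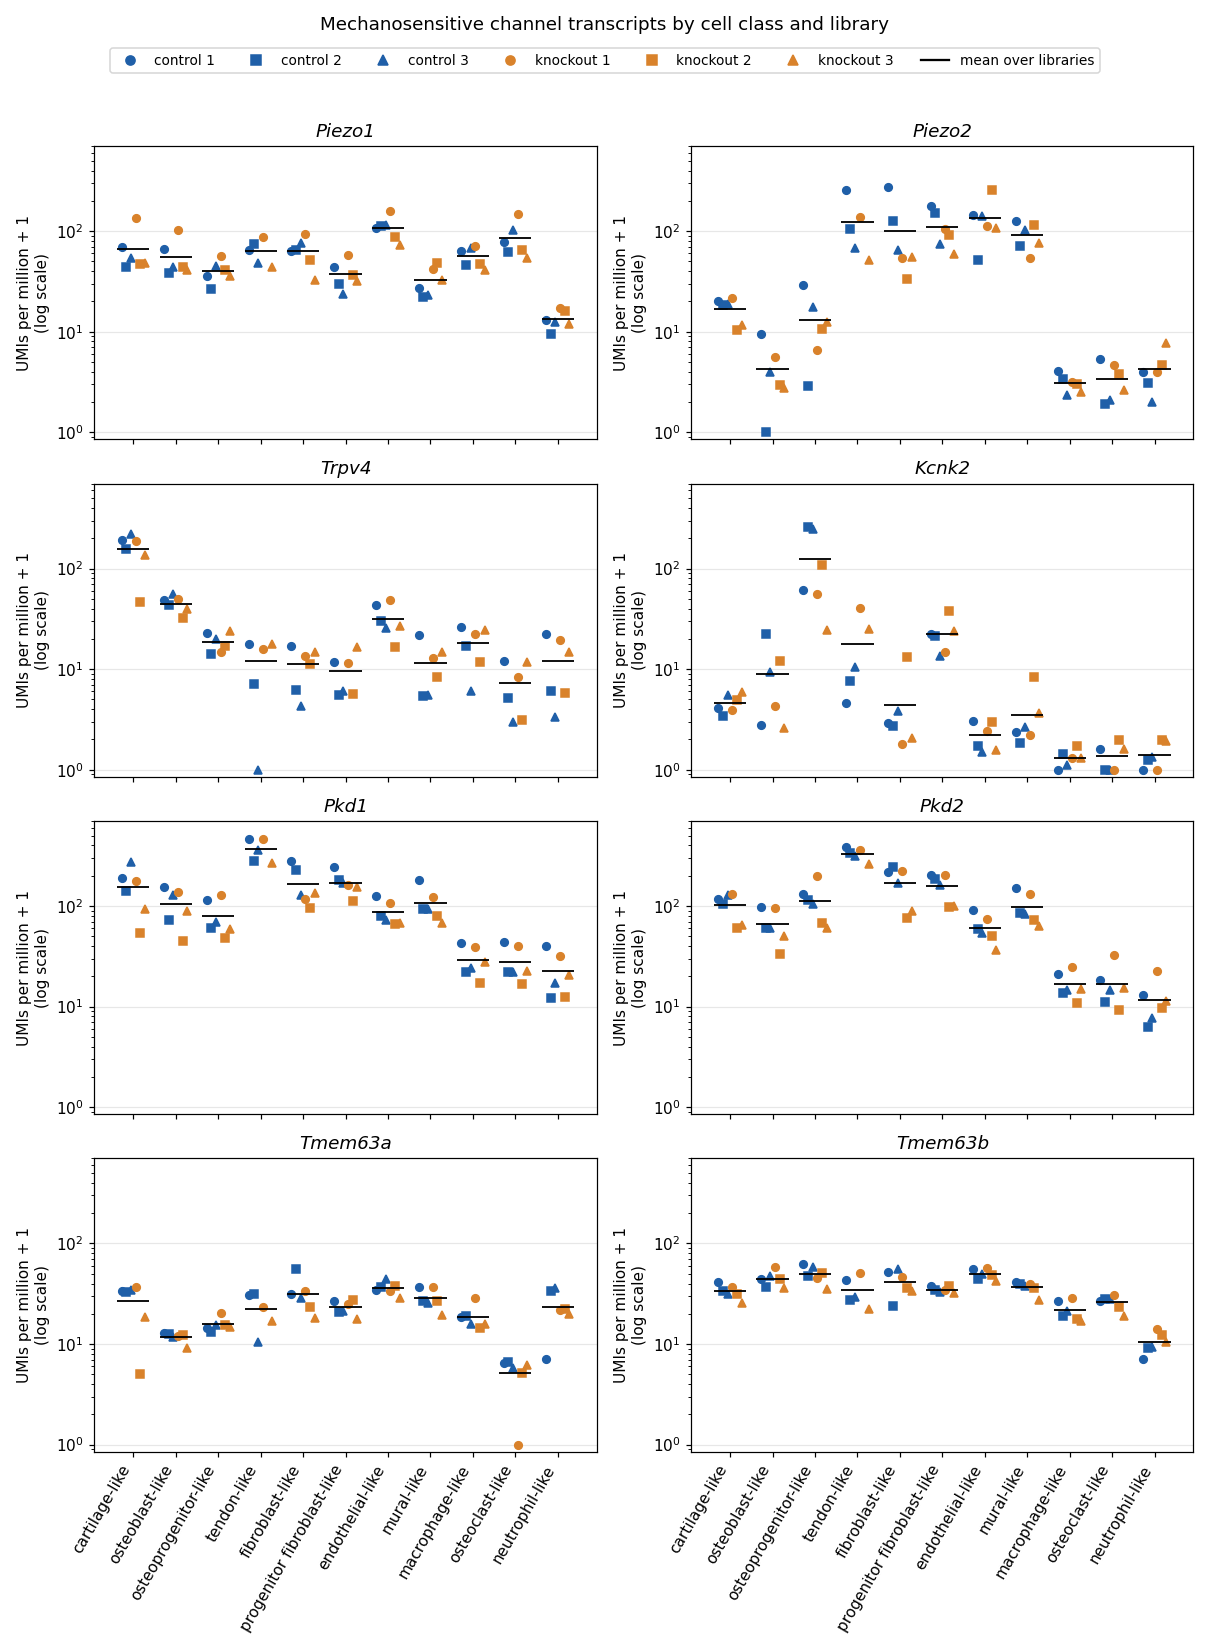
Level of each channel in 11 cell classes, in CPM plus 1 on a log scale. Blue points are the 3 control libraries, orange points the 3 libraries labelled knockout, with the marker shape giving the replicate number, and the black line is the mean over libraries. Trpv4 is highest in cartilage-like cells, Kcnk2 in osteoprogenitor-like cells, Piezo2 falls from vessels and fibroblasts to bone and immune cells, and the Tmem63 genes are spread over most classes.

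To ask whether the level of a channel differed between classes, UMIs were summed per library and class, and 7 pairs of classes were compared with edgeR's quasi-likelihood test with the library as a block and Benjamini-Hochberg adjustment over all genes. Of 54 channel and class comparisons that passed the low-count filter, of 56 possible, 39 passed an adjusted p of 0.05, with the first class higher in 8 and lower in 31. The same 39 were also past the threshold without knockout 3. Of the 39, 27 kept their side of the threshold and their direction under all 17 alternatives, and none reversed. The log2 differences are from edgeR with TMM scaling, whereas levels, class orders and library counts are plain CPM. They can therefore differ in size and in sign. Tmem63a in osteoprogenitor-like against osteoblast-like cells, for example, was higher in 6 of 6 libraries by CPM but at -0.02 by edgeR.

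The shares must be read against all genes, since most genes differ between cell types. In endothelial-like against cartilage-like cells 1 channel was higher and 4 were lower of 8 tested, with 63.6% of all genes past the threshold. The corresponding counts against cartilage-like cells were 1 higher and 5 lower of 8 in mural-like cells (51.8% of all genes), 1 and 5 of 8 in osteoblast-like cells (30.7%), 1 and 4 of 8 in osteoprogenitor-like cells (40.7%), and 0 and 7 of 8 in macrophage-like cells (69.7%). Mural-like against endothelial-like cells gave 2 higher and 3 lower of 7 (49.7%), and osteoprogenitor-like against osteoblast-like cells 2 higher and 3 lower of 7 (40.9%). The median log2 difference of the channels was -2.81 in macrophage-like against cartilage-like cells, beside -0.06 over all genes tested. It lay between -0.85 and -0.51 in the other comparisons with cartilage-like cells, beside -0.02 to -0.01 over all genes.

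**Figure D2:**
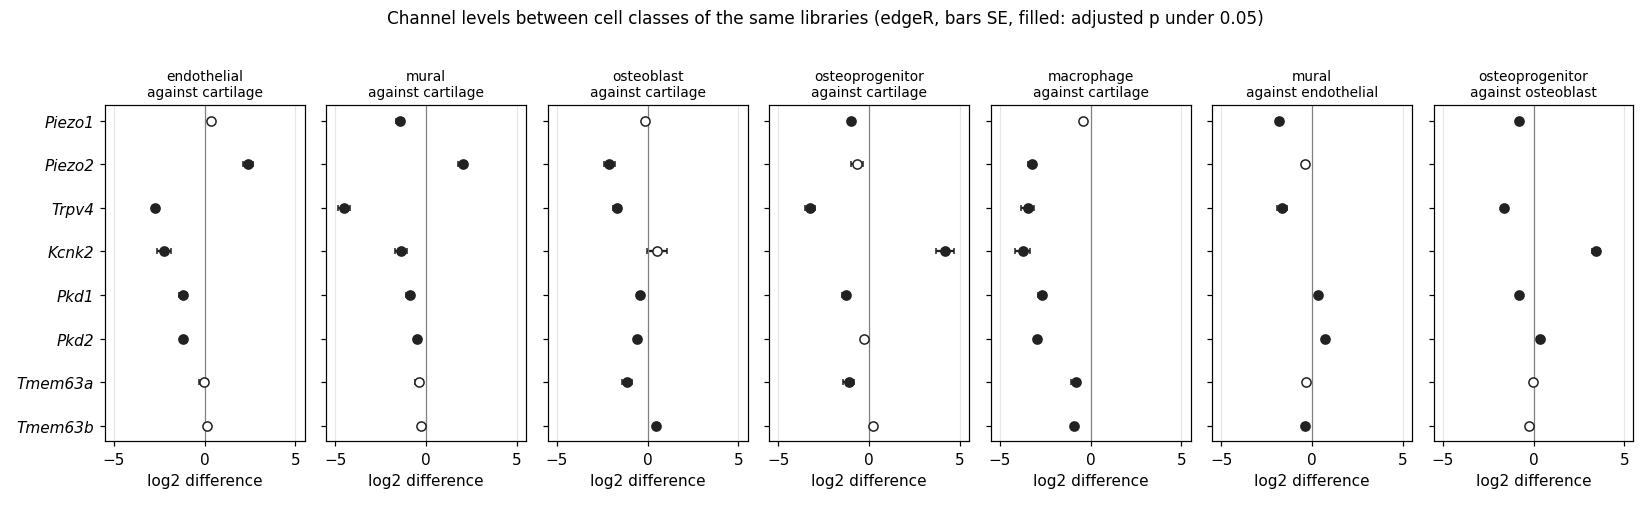
log2 difference of each channel between pairs of cell classes in the same libraries (edgeR quasi-likelihood test, 6 libraries). Points are estimates, bars the SE, and filled points passed an adjusted p of 0.05. Trpv4 lies far to the left in each comparison with cartilage, and Kcnk2 far to the right where osteoprogenitors are the first class.

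Piezo1 was measured in every class and highest in endothelial-like cells. There it stood at 107, 112 and 114 CPM in control libraries 1 to 3 and at 156, 85.6 and 71.3 in knockout libraries 1 to 3, a mean of 108 ± 28.9 (SD, n = 6). Cartilage-like cells, the cells that the Cre targets, held 65.4 ± 35.5. The endothelial-like value was higher in 6 of 6 libraries, but the log2 difference of 0.36 (SE 0.16) did not pass the test (adjusted p = 0.0687, edgeR), and without knockout 3 it was 0.40 (adjusted p = 0.0936).

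Osteoclast-like cells ranked second for Piezo1 with 83.8 ± 35.4 CPM, followed by cartilage-like, fibroblast-like (63.0 ± 21.1) and tendon-like cells (62.9 ± 17.9, n = 5). Macrophage-like cells had 55.2 ± 12.97 and osteoblast-like cells 54.9 ± 24.7. No neighbours in the Piezo1 order differed by more than their spread between libraries, down to neutrophil-like cells at 12.4 ± 2.79. Mural-like cells, the pericytes and smooth muscle cells that wrap vessels, stood at 26.5, 21.2 and 21.9 in the controls and at 40.7, 47.6 and 32.0 in the knockout libraries, below the endothelial-like value in 6 of 6 libraries. The log2 difference was -1.81 (SE 0.20, adjusted p = 2.45e-05, edgeR) against endothelial-like cells and -1.44 (SE 0.20, adjusted p = 1.68e-04) against cartilage-like cells. Osteoprogenitor-like cells had less Piezo1 than osteoblast-like cells (log2 difference -0.81, SE 0.13, adjusted p = 3.08e-04) and than cartilage-like cells (-1.01, SE 0.17, adjusted p = 6.78e-04). Osteoblast-like and macrophage-like cells were at -0.17 (adjusted p = 0.249) and -0.43 (adjusted p = 0.0520) against cartilage-like cells and did not pass.

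Piezo2 had a sharper boundary. It stood between 90.1 and 135 CPM in endothelial-like, tendon-like, progenitor fibroblast-like, fibroblast-like and mural-like cells, and these 5 did not differ from their neighbours by more than the spread. The next class was cartilage-like with 15.9 ± 4.69, and the step from mural-like cells (90.1 ± 28.2) was larger than the spread between libraries.

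In endothelial-like cells Piezo2 stood at 145, 50.1 and 142 CPM in the controls and at 112, 253 and 106 in the knockout libraries. The cartilage-like values were 19.4, 17.5 and 17.7 in the controls and 20.6, 9.31 and 10.8 in the knockout libraries, so that every endothelial-like value lay above every cartilage-like value. The log2 difference was 2.37 (SE 0.28, adjusted p = 3.43e-05, edgeR), and 2.25 without knockout 3. In mural-like cells the values ran from 52.7 to 125, and the log2 difference from cartilage-like cells was 2.00 (SE 0.23, adjusted p = 3.48e-05). Between mural-like and endothelial-like cells Piezo2 differed by -0.38 (SE 0.18, adjusted p = 0.109). Bone and immune classes were low: osteoprogenitor-like cells had 12.2 ± 9.22, osteoblast-like cells 3.29 ± 2.99 and macrophage-like cells 2.08 ± 0.614. The osteoblast-like value fell below cartilage-like cells by 2.12 on the log2 scale (SE 0.31, adjusted p = 4.31e-04), a call that was lost when the libraries were clustered without integration (-0.55, adjusted p = 0.0896). B cell-like cells had no Piezo2 UMI.

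Trpv4 was highest in cartilage-like cells. Its level in cartilage-like cells was 190.2, 154 and 221 CPM in the controls and 185, 45.2 and 134 in the knockout libraries, a mean of 155 ± 61.6. Knockout 2 was the low value and also held only 38 cartilage-like cells, of which 20 were hypertrophic chondrocyte-like. A further 692 cells of that library were in the few-UMI clusters with chondrocyte markers. The next classes were osteoblast-like cells with 43.9 ± 8.29 and endothelial-like cells with 30.8 ± 11.9, and each of these steps, like that to osteoprogenitor-like cells (17.8 ± 4.13), was larger than the spread.

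Osteoblast-like cells had 47.6, 41.9 and 55.1 CPM of Trpv4 in the controls and 48.3, 31.5 and 38.7 in the knockout libraries, below cartilage-like cells in 6 of 6 libraries. The log2 difference was -1.68 (SE 0.21, adjusted p = 1.56e-04, edgeR). Against cartilage-like cells it was -2.74 in endothelial-like (SE 0.19, adjusted p = 5.36e-07), -3.28 in osteoprogenitor-like (SE 0.28, adjusted p = 4.99e-06), -3.47 in macrophage-like (SE 0.35, adjusted p = 7.53e-06) and -4.52 in mural-like cells (SE 0.35, adjusted p = 2.17e-06). Without knockout 3 these values were -2.74, -3.39, -3.61 and -4.76. Endothelial-like cells had more Trpv4 than mural-like cells in 6 of 6 libraries (log2 difference of mural from endothelial -1.66, SE 0.26, adjusted p = 3.25e-04).

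In neutrophil-like cells Trpv4 moved with cartilage transcripts of the same library. These cells had 21.1, 5.07 and 2.32 CPM of Trpv4 in the controls and 18.4, 4.78 and 13.8 in the knockout libraries. The 14 chondrocyte markers summed to 5585, 1480 and 661 CPM in neutrophil-like cells of the controls and to 5158, 347 and 5565 in those of the knockout libraries, with 11 to 14 of the 14 detected. Control 1, knockout 1 and knockout 3 were thus high in both measures. Their part in the Trpv4 level of the other classes was not tested.

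Kcnk2 was highest in osteoprogenitor-like cells. Its level in osteoprogenitor-like cells was 60.2, 256 and 245 CPM in the controls and 55.1, 108 and 23.4 in the knockout libraries (125 ± 101). The next class was progenitor fibroblast-like with 21.4 ± 8.60, and the step was larger than the spread between libraries although that spread was wide. Single libraries overlapped: the lowest osteoprogenitor-like value (23.4) was below the highest of progenitor fibroblast-like (36.6) and of tendon-like cells (39.5). The osteoprogenitor-like cluster was led by Gdpd2, Mmp9, Cxcl12 and Cyp1b1, with Kcnk2 itself among its 10 leading genes. The mean log2 enrichment of marrow stromal markers in it (2.72) was above that of osteoprogenitor markers (1.36), so its name is less certain than the others. Osteoblast-like cells had 7.90 ± 7.64, cartilage-like cells 3.64 ± 0.975, endothelial-like cells 1.203 ± 0.693 and macrophage-like cells 0.317 ± 0.257.

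The osteoprogenitor-like value of Kcnk2 was the higher in 6 of 6 libraries in both comparisons made. The log2 difference was 3.43 (SE 0.22, adjusted p = 1.03e-07, edgeR) against osteoblast-like cells and 4.20 (SE 0.49, adjusted p = 5.68e-05) against cartilage-like cells, and 3.43 and 4.79 without knockout 3. Against cartilage-like cells Kcnk2 was lower in endothelial-like (-2.24, SE 0.37, adjusted p = 3.48e-04), mural-like (-1.40, SE 0.33, adjusted p = 0.00465) and macrophage-like cells (-3.74, SE 0.42, adjusted p = 1.60e-05), all at levels of a few CPM. The mural-like call rested on 25 UMIs in mural-like cells, lower in 5 of 6 libraries. It was lost with replicate 3 of both groups left out. The gene 2900042K21Rik overlaps Kcnk2 on the same strand and gave 30 UMIs in osteoprogenitor-like cells, beside 1436 of Kcnk2.

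Pkd1 and Pkd2 were led by the same class. In tendon-like cells, where 7 of 7 of the tendon markers used for naming were highest, Pkd1 stood at 464, 281 and 362 CPM in the controls and at 460 and 264 in knockout libraries 1 and 3, and knockout 2 had only 5 such cells. Pkd2 stood at 383, 336 and 315 in the controls and at 358 and 262 in the same knockout libraries. The means were 366 ± 94.7 and 331 ± 45.9 (n = 5), and for both genes the step to the next class was larger than the spread. Next came fibroblast-like cells (163 ± 72.5 for Pkd1 and 169 ± 72.4 for Pkd2) and progenitor fibroblast-like cells (169 ± 42.6 and 158 ± 48.4). An unnamed stromal cluster led by Tnmd, Aspn and Lrrc15 had 302 ± 144 of Pkd1 and 213 ± 102 of Pkd2. Tendon-like cells entered no tested comparison, so these values are a description.

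Cartilage-like cells had 154 ± 76.9 CPM of Pkd1 and 100.4 ± 31.2 of Pkd2. Macrophage-like cells were lower in 6 of 6 libraries for both genes, by log2 differences of -2.66 (SE 0.22, adjusted p = 1.51e-06, edgeR) and -2.95 (SE 0.14, adjusted p = 2.58e-08). Endothelial-like cells were lower by -1.18 (SE 0.23, adjusted p = 0.00111) for Pkd1 and -1.19 (SE 0.14, adjusted p = 2.97e-05) for Pkd2. Mural-like cells had more of both than endothelial-like cells in 6 of 6 libraries, with log2 differences of 0.32 (SE 0.09, adjusted p = 0.0123) for Pkd1 and 0.72 (SE 0.08, adjusted p = 2.96e-05) for Pkd2. The Pkd1 call was lost without a low-count filter (adjusted p = 0.146) and under 1 fit over all classes (adjusted p = 0.246). In osteoprogenitor-like cells the polycystins differed in direction. Against osteoblast-like cells Pkd1 was lower (-0.81, SE 0.13, adjusted p = 2.01e-04) while Pkd2 was higher in 6 of 6 libraries (0.32, SE 0.12, adjusted p = 0.0440), though the Pkd2 call was lost under 11 of the 17 alternatives. The same holds for Pkd1 in osteoblast-like against cartilage-like cells (-0.45, SE 0.15, adjusted p = 0.0409), which was lost under 9.

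Tmem63a and Tmem63b were measured in every class, and no single class stood far above the others. Tmem63a was highest in endothelial-like cells, at 33.4, 35.6 and 43.1 CPM in the controls and 32.7, 36.5 and 27.4 in the knockout libraries, and stayed between 10.8 and 30.8 in all other named classes but osteoclast-like cells. Osteoclast-like cells had 4.21 ± 2.13, below the osteoblast-like value (10.8 ± 1.33) by more than the spread. Tmem63a was lower than in cartilage-like cells in osteoblast-like (log2 difference -1.16, SE 0.28, adjusted p = 0.00900, edgeR), osteoprogenitor-like (-1.12, SE 0.30, adjusted p = 0.0118) and macrophage-like cells (-0.83, SE 0.23, adjusted p = 0.00866). Each of these 3 calls was lost in at least 1 alternative that left out libraries. The endothelial-like value differed from the cartilage-like by -0.06 (SE 0.25, adjusted p = 0.859), although it was higher in 5 of 6 libraries.

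Tmem63b stood at 48.8 ± 9.84 in osteoprogenitor-like, 48.6 ± 6.09 in endothelial-like and 43.6 ± 7.87 in osteoblast-like cells, values that did not differ beyond their spread. The lowest classes for Tmem63b were neutrophil-like (9.42 ± 2.55) and erythroid-like cells (5.80 ± 6.12, n = 4). Tmem63b was the 1 channel that passed the threshold as higher in osteoblast-like than in cartilage-like cells. It had 43.8, 35.7 and 46.2 CPM in osteoblast-like cells of the controls and 56.8, 43.6 and 35.5 in those of the knockout libraries, against 24.9 to 40.3 in cartilage-like cells. The osteoblast-like value was the higher in 6 of 6 libraries, although the ranges overlap across libraries (log2 difference 0.46, SE 0.12, adjusted p = 0.0133, edgeR). This call was lost without integration (0.10, adjusted p = 0.685) and with replicate 3 of both groups left out (adjusted p = 0.133). Macrophage-like cells were lower than cartilage-like cells (-0.93, SE 0.11, adjusted p = 2.46e-05), and mural-like lower than endothelial-like cells (-0.39, SE 0.09, adjusted p = 0.00561), the latter call being lost with replicate 3 of both groups left out (adjusted p = 0.0727).

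**Figure D3:**
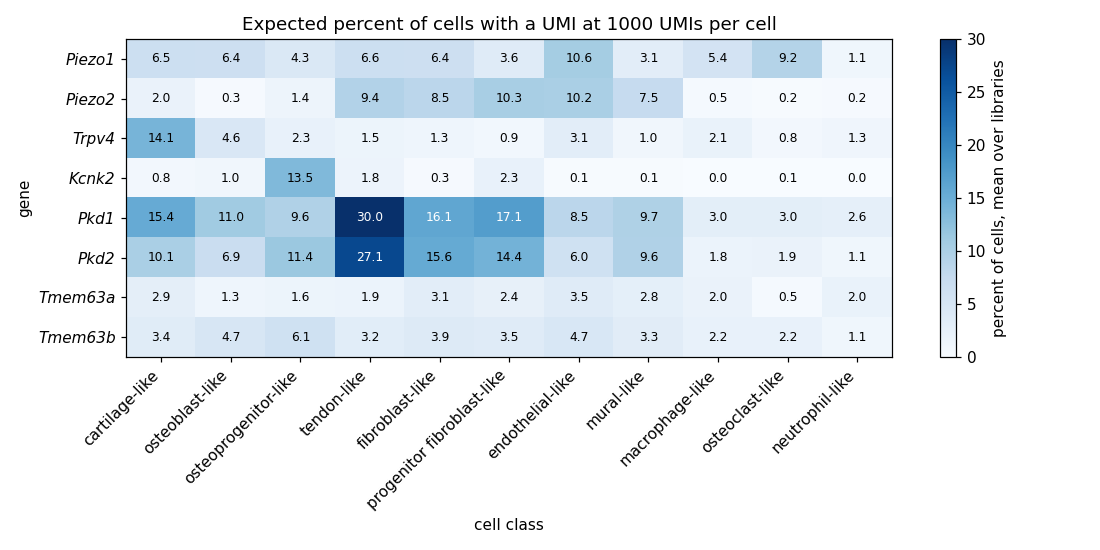
Expected percentage of cells with at least 1 UMI of each channel after every cell was reduced to 1000 UMIs, as the mean over libraries, by cell class. Each gene is to be read along its row, from 13.5 for Kcnk2 in osteoprogenitor-like cells to 0.0437 in neutrophil-like cells, for example.

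The shares of cells with a UMI gave the same leading class as the levels in 6 of 8 channels. To compare classes of unequal depth each cell was reduced to 1000 UMIs, leaving out shallower cells, and neutrophil-like cells, which serve as the background class, had a median depth of 2446 UMIs. Piezo1 was detected in 10.6% ± 1.94 (SD, n = 6) of endothelial-like cells, beside 1.15% ± 0.361 of neutrophil-like cells. Left out as shallower were 456 of 4904 neutrophil-like, 60 of 1380 osteoprogenitor-like, 25 of 5464 endothelial-like and 5 of 3541 cartilage-like cells. Without the reduction the shares for Piezo1 were 52.6% at a median depth of 7417 UMIs and 4.32%.

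Trpv4 was detected in 14.1% ± 5.73 of cartilage-like cells, which had a median depth of 20075 UMIs and an unreduced share of 77.8%. Neutrophil-like cells were at 1.27% ± 1.11. Osteoblast-like cells (4.56% ± 0.842) and endothelial-like cells lay above that level, while mural-like, progenitor fibroblast-like and osteoclast-like cells lay below it and fibroblast-like cells close to it. Trpv4 in the latter classes was thus not clearly above the neutrophil-like share, which itself ran from 0.177% to 3.12% over libraries. The means of osteoprogenitor-like (2.29% ± 0.725), macrophage-like (2.08% ± 0.854) and endothelial-like cells (3.07% ± 0.984) also lay inside that range. The source of Trpv4 in these classes was not tested. Kcnk2 was detected in 13.5% ± 7.97 of osteoprogenitor-like cells, beside 0.0437% ± 0.0575 of neutrophil-like cells, and unreduced in 39.9% at a median depth of 6330 UMIs. The exceptions were Piezo2, where progenitor fibroblast-like cells (10.3% ± 3.84) came just before endothelial-like cells (10.2% ± 5.45), and Tmem63a, where B cell-like cells (3.56% ± 4.70, n = 3) came before endothelial-like cells (3.53% ± 0.621). For Tmem63a the neutrophil-like share was 2.05% ± 0.907, and osteoclast-like (0.451% ± 0.243) and osteoblast-like cells (1.35% ± 0.207) were below it, so for this gene the neutrophil-like share is not a floor. Pkd1 reached 30.05% ± 4.80 and Pkd2 27.1% ± 2.12 of tendon-like cells, against 2.61% ± 2.04 and 1.12% of neutrophil-like cells. At 500 UMIs per cell the leading class of Piezo2 was endothelial-like again.

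**Figure D4:**
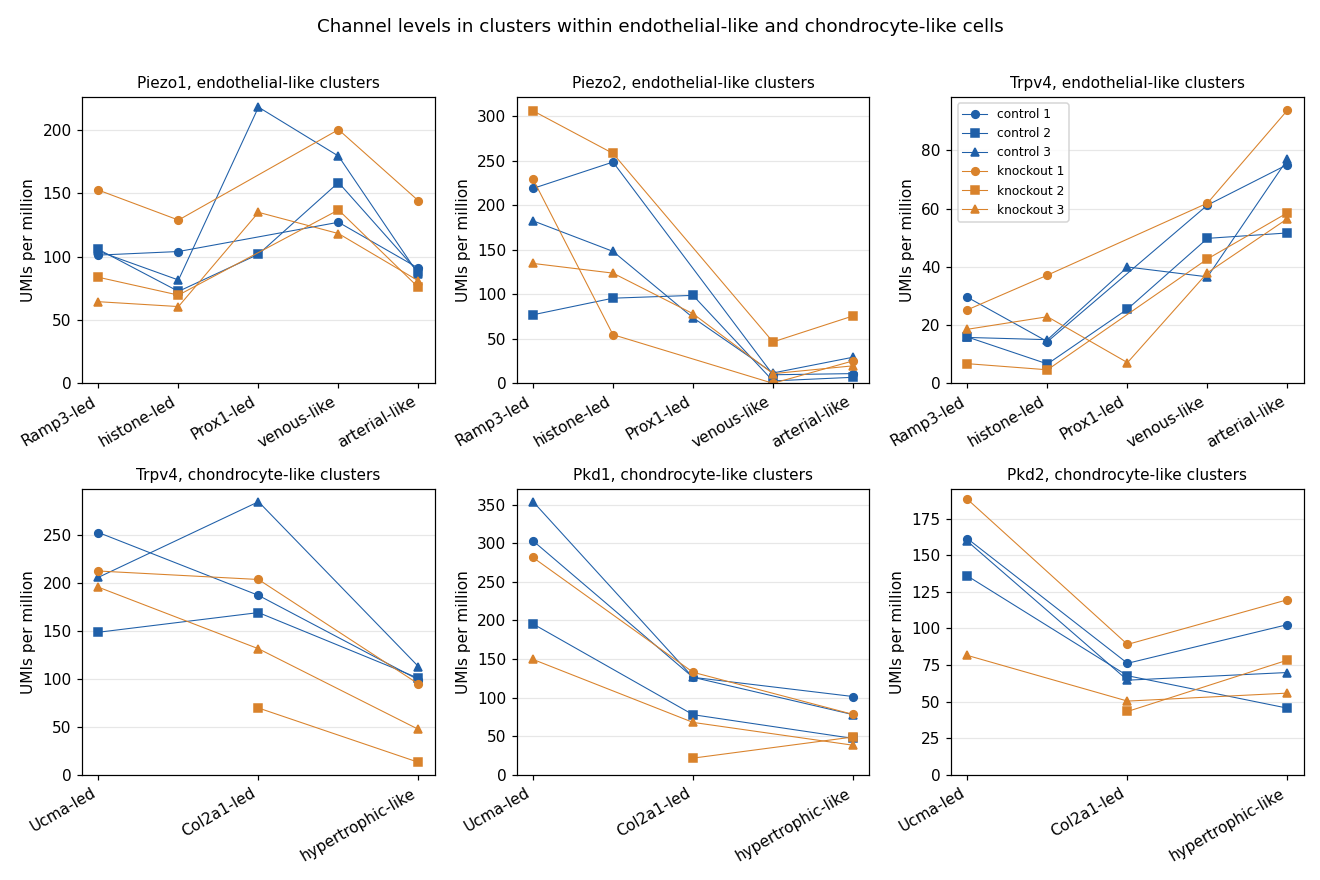
Channels in clusters within endothelial-like cells (top) and chondrocyte-like cells (bottom), in CPM per library. Lines join the clusters of 1 library and have no meaning between clusters, colours and shapes are as in the plot of levels by class, and only clusters with at least 10 cells in a library are shown. Piezo2 drops from the Ramp3-led to the venous-like cluster in every library, whereas Trpv4 rises.

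Within endothelial-like cells Piezo1, Piezo2 and Trpv4 differed between clusters. The clusters were a main cluster led by Ramp3, Lrrc55 and Pcdh12, a cluster led by Hist1h2ap, Hist1h2ae and Cenpf, an arterial-like cluster (Gja5, Gja4), a venous-like cluster (Ackr1, Selp), and a small cluster led by Ccl21a, Mmrn1 and Prox1, genes known from lymphatic vessels. The main cluster took no name from the vessel marker lists. Between the main, arterial-like and venous-like clusters, Pkd2 and Tmem63b kept no order over all libraries. These comparisons follow from the clustering and are given without a test.

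Piezo1 in the venous-like cluster stood at 127, 159 and 180 CPM in the controls and 200.4, 137 and 118 in the knockout libraries, above the main cluster and above the arterial-like cluster in 6 of 6 libraries (154 ± 31.96 against 102 ± 29.4 and 94.2 ± 25.04). Piezo2 was distributed otherwise, with 219, 77.0 and 183 in the main cluster of the controls and 230, 306 and 135 in that of the knockout libraries. The main cluster was above the arterial-like (27.9 ± 24.9) and the venous-like cluster (13.6 ± 16.8) in 6 of 6 libraries. Trpv4 was highest in the arterial-like cluster (68.8 ± 16.01), above the venous-like (48.4 ± 11.2) and the main cluster (18.6 ± 7.999) in 6 of 6 libraries. The Prox1-led cluster, which had at least 10 cells in only 3 libraries, had 151.8 ± 59.9 of Piezo1, 83.6 ± 13.4 of Piezo2 and 67.0 ± 11.6 of Tmem63a, the last above the main cluster in 3 of 3 libraries.

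Within cartilage-like cells Trpv4, Pkd1, Piezo2 and Tmem63a were lowest in hypertrophic chondrocyte-like cells, while Kcnk2 was highest there. Trpv4 had 203 ± 37.4 CPM in the cluster led by Ucma, Sfrp5 and Cnmd (n = 5) and 174.5 ± 72.2 in the cluster led by Col2a1, Hapln1 and Col9a1 (n = 6), against 78.1 ± 39.1 in hypertrophic chondrocyte-like cells, lower there in every library measured. Pkd1 fell from 257 ± 82.9 in the Ucma-led to 68.7 ± 25.7 in the hypertrophic cluster of the same 5 libraries, and Piezo2 from 25.6 ± 7.67 to 2.44 ± 2.19. Kcnk2 was the reverse, with 0.863 ± 1.11 in the Col2a1-led and 8.46 ± 4.17 in the hypertrophic cluster, higher in 6 of 6 libraries at a low level. Pkd2 was at 145 ± 40.2 in the Ucma-led cluster and 78.7 ± 31.4 in the hypertrophic cluster of the same libraries, but the Col2a1-led cluster (65.2 ± 16.7) was below the hypertrophic in 5 of 6. Piezo1 was at 68.1 ± 37.3 in the Col2a1-led and 71.2 ± 35.2 in the hypertrophic cluster, higher in the latter in 4 of 6 libraries. Among osteoblast-like cells, the osteocyte-like cluster had more Piezo1 than the rest in 6 of 6 libraries (74.97 ± 28.4 against 50.8 ± 26.4) and less Trpv4 in 6 of 6 (23.5 ± 16.4 against 48.0 ± 8.89).

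Related genes were described in the same comparisons. Among 17 further stretch or volume channels, 6 to 8 were abundant enough to test. Mural-like cells had more of 5 of 8 than endothelial-like cells, led by Trpc6 (log2 difference 6.81, SE 0.21, adjusted p = 3.14e-08, edgeR), a receptor-operated calcium channel of smooth muscle and pericytes, Trpc1 (3.33, SE 0.18) and Trpv2 (2.90, SE 0.15). They had less Gja1, the gap junction protein connexin 43 (-2.97, SE 0.53), and less Lrrc8a, a subunit of the volume-regulated anion channel (-0.74, SE 0.11). Osteoprogenitor-like cells had more Gja1 than cartilage-like cells (2.54, SE 0.27) as well as more Panx1 and Trpc1, 3 of 7 tested, with none lower. The median over this list was 0.56 in the former comparison and 0.71 in the latter, beside -0.01 and -0.02 over all genes. Of all genes 49.7% and 40.7% passed in these comparisons, so the 3 of 7 is near the share of all genes.

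Of 6 proposed Piezo partners 5 were tested. Mdfic, a transcriptional regulator family member that binds Piezo channels, was higher in endothelial-like (1.38, SE 0.14) and macrophage-like cells (3.01, SE 0.15) than in cartilage-like cells, whereas its relative Mdfi was lower in both (-1.64, SE 0.20, and -4.25, SE 0.19). Cdh2, the N-cadherin gene, was higher in osteoblast-like (3.35, SE 0.24), osteoprogenitor-like (2.95, SE 0.25) and mural-like cells (1.31, SE 0.25) and lower in endothelial-like cells (-3.14, SE 0.28). The adjusted p of these values lay between 1.92e-08 for Mdfi in macrophage-like cells and 0.00127 for Cdh2 in mural-like cells.

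Of 12 genes of the primary cilium, where the polycystins act, and of polycystin processing in the endoplasmic reticulum (Ganab, Prkcsh and Sec63), 8 were lower and 1 was higher in endothelial-like than in cartilage-like cells, with a median log2 difference of -0.74 beside -0.01 over all genes, of which 63.6% passed in either direction. Ift20 (-1.36, SE 0.19), Ift88 (-1.03, SE 0.17) and Tulp3 (-0.97, SE 0.11) led the lower ones, and Gpr161 was higher (1.05, SE 0.26). Mural-like cells, which had more Pkd1 and Pkd2 than endothelial-like cells, had more of 6 of the 12, including Kif3a (1.11, SE 0.12) and Ift140 (1.01, SE 0.23), and less of Ganab (-0.26, SE 0.09), a glucosidase subunit of the endoplasmic reticulum, beside 49.7% of all genes that passed. Of 11 genes of calcium release and removal, 7 were higher and 3 lower in endothelial-like than in cartilage-like cells, with Slc8a1 (1.55, SE 0.33), Atp2b4 (1.41, SE 0.13) and Stim2 (1.16, SE 0.14) higher and Itpr2 lower (-1.35, SE 0.18). Of 11 calcineurin and calcium-induced genes, 8 were lower in endothelial-like cells and none higher, led by Ptgs2 (-5.04, SE 0.31) and Nfatc2 (-4.06, SE 0.19). The median of this list was -0.93. These counts too stand beside the 63.6% of all genes that passed in this comparison.

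By genotype label no channel passed the test in any class. In 14 classes 95 channel and class pairs were tested between knockout and control libraries (edgeR, 1 fit per class), and 0 of 95 passed an adjusted p of 0.05. The background is near 0 as well, since 6.49e-04% of 154191 gene and class pairs passed. It covers 15 classes, and the 1 pair that passed was in erythroid-like cells, where no channel was tested. At an unadjusted p of 0.05, 6 of the 95 pairs (6.32%) passed, beside 3.62% of all gene and class pairs, and without knockout 3 it was 4 of 97, all of them among the 6. DESeq2 also called 0 pairs. In simulated data the edgeR fit by label in cartilage-like cells recovered only 10% of genes changed by a log2 of 1, so differences of that size could be missed.

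**Figure D5:**
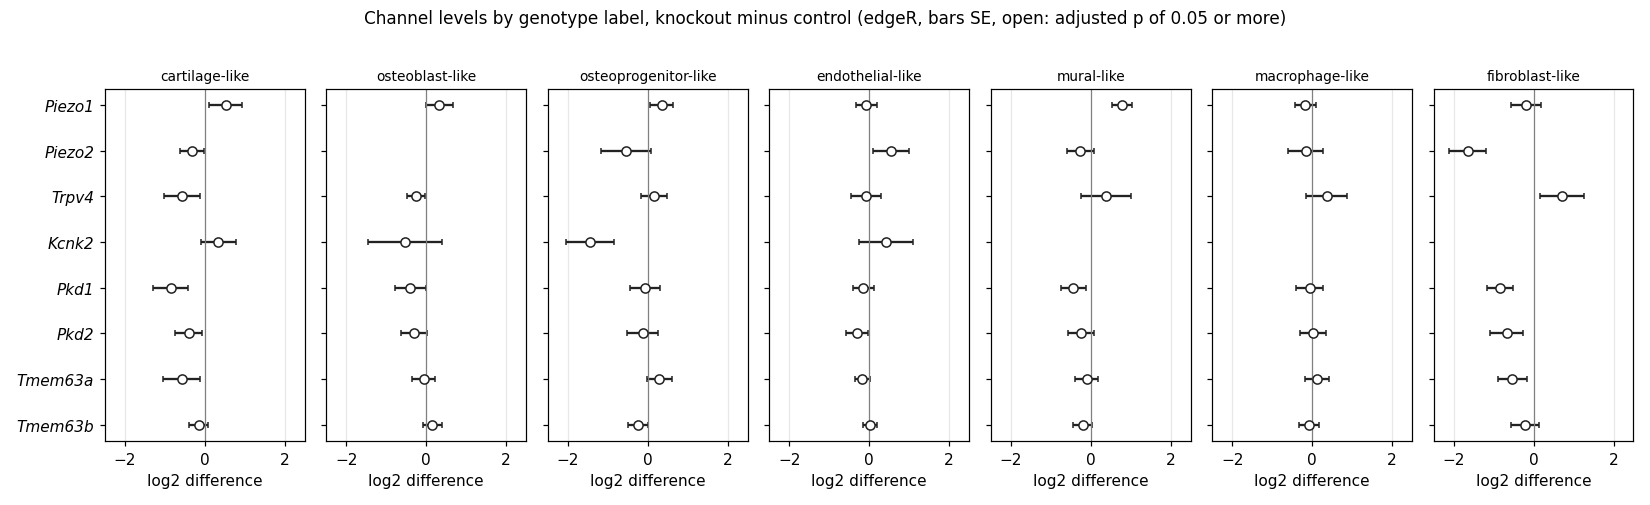
log2 difference of each channel between the libraries labelled knockout and the control libraries in 7 cell classes (edgeR quasi-likelihood test, 3 against 3 libraries, bars are the SE). All points are open, since none passed an adjusted p of 0.05, and the furthest from 0 are Kcnk2 in osteoprogenitor-like and Piezo2 in fibroblast-like cells.

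Piezo1, the targeted gene, did not pass the test in the targeted cells, and its mean was higher in the libraries labelled knockout. Cartilage-like cells had 68.0, 42.7 and 52.5 CPM in the controls and 136, 46.6 and 46.8 in the knockout libraries, so knockout 1 was the highest library and the other two knockout libraries lay within the range of the controls. The log2 difference was 0.53 (SE 0.41, adjusted p = 0.999, edgeR), -0.15 without knockout 1 and 0.76 without knockout 3. A 3′ library can count a transcript that lacks the floxed exons, so this value alone does not check the deletion. Reads over the floxed exons were not examined here. The study checked the deletion by immunofluorescence of Piezo1 protein. It also reports lower Piezo1 RNA in 1 of its hypertrophic chondrocyte clusters, a comparison between clusters rather than between labels.

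Endothelial-like cells, which the Cre does not target, offer a reference for Piezo1 within a library. The log2 ratio of the cartilage-like to the endothelial-like level was -0.65, -1.38 and -1.12 in the controls and -0.20, -0.88 and -0.61 in the knockout libraries. The knockout mean was higher by 0.49 (exact permutation test, two-sided, p = 0.2, with 0.1 the smallest p for 3 against 3), and the groups overlapped through control 1. Without knockout 3 the difference was 0.51 (exact permutation test, p = 0.4). Between libraries of the same replicate number the knockout ratio was higher by 0.45, 0.51 and 0.52. An exact sign-flip test of these 3 differences gave p = 0.25, the smallest it can give. An edgeR interaction of class and label gave 0.48 for Piezo1 (SE 0.30, adjusted p = 1), and 0 of 15632 genes passed it, with 755 at an unadjusted p of 0.05. Within endothelial-like cells alone Piezo1 differed by -0.07 between labels (SE 0.27, adjusted p = 0.962).

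The 6 pairs at an unadjusted p of 0.05 were these. Kcnk2 in osteoprogenitor-like cells was at 187 ± 109.995 CPM in the controls and 62.2 ± 42.8 in the knockout libraries (SD, n = 3), with control 1 inside the knockout range (log2 difference -1.45, SE 0.60, adjusted p = 0.823, edgeR). Without knockout 3 the difference was -1.04 and its unadjusted p rose to 0.108. The 8 osteoprogenitor markers, all detected in every library, summed to 2600.1, 3505 and 3336 CPM in the same cells of the controls and to 2406, 2389 and 1665 in those of the knockout libraries, so they were lower there too. The 14 chondrocyte markers, of which 13 or 14 were detected, summed in these cells to 4268.5, 1604 and 676 CPM in the controls and to 3393, 309 and 4909 in the knockout libraries. They were high in control 1, knockout 1 and knockout 3, the 3 libraries with the least Kcnk2. The part of either list in the Kcnk2 value was not tested. Knockout 1 had 22 osteoprogenitor-like cells.

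Piezo1 in mural-like cells ran from 21.2 to 26.5 in the controls and from 32.0 to 47.6 in the knockout libraries. The log2 difference was 0.80 (SE 0.25, adjusted p = 0.930, edgeR), and 0.90 without knockout 3. The 11 endothelial markers, all detected, summed to 344, 601 and 461 CPM in mural-like cells of the controls and to 742, 699 and 920 in those of the knockout libraries, and Piezo1 is highest in endothelial-like cells. Their part in the Piezo1 value was not tested. Piezo2 in fibroblast-like cells was at 273, 126 and 63.3 in the controls and 52.6, 32.7 and 54.1 in the knockout libraries (log2 difference -1.65, SE 0.46, adjusted p = 1.00, edgeR). The log2 difference was 0.07 when libraries were clustered without integration. The 12 fibroblast markers, of which 11 or 12 were detected, summed to between 9644 and 54020.5 CPM in the libraries of this class, and the part of this in the Piezo2 value was not tested. Pkd1 was lower in the same class (-0.84, SE 0.33, adjusted p = 1.00). Kcnk2 in tendon-like cells (2.5, SE 0.50, adjusted p = 0.364) rested on 2 knockout libraries, and Pkd2 in neutrophil-like cells (1.02, SE 0.44, adjusted p = 0.986) on 174 UMIs in all.

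Other differences by label did not pass either. Pkd1 in cartilage-like cells differed by -0.85 (SE 0.44, adjusted p = 0.999, edgeR), with 200 ± 66.4 CPM in the controls and 107 ± 62.7 in the knockout libraries. Trpv4 in cartilage-like cells differed by -0.56 (SE 0.46, adjusted p = 0.999, edgeR), and by -0.18 without knockout 2. Hypertrophic chondrocyte-like cells ran from 24 of 500 cartilage-like cells in control 3 to 20 of 38 in knockout 2. Their part in these 2 differences was not tested. Piezo2 in endothelial-like cells differed by 0.55 (SE 0.45, adjusted p = 0.816), with knockout 2 the highest and control 2 the lowest library. In macrophage-like cells the 7 channels tested lay between -0.17 for Piezo1 and 0.37 for Trpv4, and in osteoblast-like cells the 7 tested lay between -0.53 for Kcnk2 and 0.33 for Piezo1. None of the related gene lists had a member past the threshold by label in any class.

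Over the 15 classes with values in at least 4 libraries, the genes whose mean log level was most like that of a channel were found among 12865 genes. These correlations share libraries and cells and are a description over 15 points. Piezo2 was most like Pxdn, Nid1 (Pearson r = 0.984 for both) and Tmod2 (r = 0.978), the first and second of which encode basement membrane proteins. Trpv4 was most like Eps8l2 (r = 0.923), Gramd2 and Nim1k (r = 0.883), Kcnk2 like Hmgcll1 (r = 0.963), Gm31520 and Gm44414 (r = 0.917), Pkd1 like Blzf1 (r = 0.963), Dsel and Ccn2 (r = 0.960), and Pkd2 like Pam (r = 0.970), Tspan6 and Calu. Piezo1 was most like Avpi1 (r = 0.898), Rcan3 (r = 0.895) and Zdhhc12 (r = 0.887). Tmem63b was most like Luzp1 (r = 0.973), Zfp318 and Csnk1g3 (r = 0.968).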

How the data were processed

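Callus cells of 6 libraries were measured by 3′ single-cell RNA sequencing. The deposited files hold UMI counts per gene and barcode, made by the authors with Cell Ranger (6.1.1 for replicate 1 of both groups, 6.1.2 for the others) on mm10/GRCm38, and since the gene list of replicate 3 differed from that of the other libraries, only the 52081 shared gene identifiers were used. A barcode was kept as a cell from 500 UMIs and 200 genes upward unless more than 20% of its UMIs were mitochondrial. The cells with the highest Scrublet scores, 0.8% per 1000 cells, were removed as doublets (3074 in all).

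Cells were clustered in Seurat 5.3.0 (reciprocal PCA, 2000 variable genes without the channels and related lists, 30 components) and scanpy 1.11.5 (20 neighbours, Leiden resolution 0.8), and again among stromal cells. Clusters were named from marker lists, needing at least 3 enriched markers. Stromal, endothelial and mural clusters with a median UMI count under 1/3 of their library's were kept apart, a threshold set after seeing the data. Immune clusters below it could keep their name, since immune cells hold less RNA. A neutrophil-like cluster of 2904 cells, at 0.27 of the library median, was kept in this way. UMIs were summed per library and class and tested with edgeR 4.0.16 (TMM, filterByExpr, quasi-likelihood), with an adjusted p of 0.05 as the threshold, and DESeq2 1.42.0 was an alternative. Levels are CPM within a library and class, and neighbours in an order were said to differ where their means were further apart than the pooled SD. Expected detection at 1000 UMIs was computed per cell from the hypergeometric distribution, and shares and their spread cover counting and libraries only. The fits were tested on simulated data. By label in cartilage-like cells the fit recovered 10% of genes changed by a log2 of 1 and 75% of those changed by 2, with 4 false calls. For endothelial-like against cartilage-like cells it recovered 91% and 100%, with 10 false calls. The genes named are the channels in all comparisons and, per related list, up to 3 genes called in each direction with the largest differences, plus the 3 genes whose class pattern was most like each channel by Pearson correlation, except for Tmem63a, for which this result is not reported here. Members, gene lists and tests were chosen with earlier results of these data known.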

Additional observations from a re-analysis of the deposited data

How the results depend on the processing

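Between classes, the count of calls lay between 29 (replicate 3 of both groups left out) and 44 over the alternatives, around 39, and no called difference reversed. By genotype label 0 pairs were called in every alternative except 3 without a low-count filter (Kcnk2 in osteoprogenitor-like and tendon-like cells and Piezo2 in fibroblast-like cells). The Piezo1 difference in cartilage-like cells ranged from -0.15 to 0.77 when each library was left out in turn. Among differences that did not pass, signs changed on leaving out single libraries for Kcnk2 in osteoblast-like against cartilage-like cells (-0.112 to 1.09), Tmem63a in endothelial-like against cartilage-like cells (-0.231 to 0.0605), Tmem63a in osteoprogenitor-like against osteoblast-like cells (-0.130 to 0.0679) and, by label, Kcnk2 in cartilage-like cells (-0.0564 to 0.625). They also changed for the endothelial-like Tmem63a difference with DESeq2 (0.0914) and at resolution 0.4 (0.00896), and for the osteoprogenitor-like one under a stricter cell filter (0.00605). Without integration Tmem63b in osteoprogenitor-like against osteoblast-like cells was at 0.0849, and by label Piezo2 in fibroblast-like cells was at 0.0661 and Kcnk2 in cartilage-like cells at -0.0590. The causes were not tested. Without integration the leading class was the same for 6 of 8 channels. Deviations of same-numbered libraries correlated at numbers 1, 2 and 3 by r = 0.25, -0.08 and 0.04 in cartilage-like, 0.32, -0.05 and 0.09 in endothelial-like, 0.43, 0.12 and 0.06 in osteoblast-like and 0.01, -0.15 and 0.01 in macrophage-like cells. Number 1 thus correlated in 3 of these 4 classes but not every number did. Between libraries of unlike number the highest r was 0.22 in cartilage-like, 0.24 in endothelial-like, 0.15 in osteoblast-like and 0.17 in macrophage-like cells. No label ties the numbers together, so they were not taken as pairs. The files do differ by number. Both libraries of number 1 shared a Cell Ranger version and a high share of few-UMI cells, and the gene list differed at number 3. With a replicate block 0 pairs were called by label and the Piezo1 difference in cartilage-like cells was 0.36. Low levels, few cells in knockout 2 cartilage and knockout 1 osteoprogenitors, and 3 libraries per group limit what could be detected.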
